A study of Mus musculus with 19 samples.

Results

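The 10 transcripts followed here were those of the angiotensin receptors Agtr1a, Agtr1b and Agtr2, the angiotensin precursor Agt, the converting enzyme Ace, the regulators of G protein signalling Rgs2, Rgs4, Rgs5 and Rgs16, and the calcineurin inhibitor Rcan1. They were taken by symbol from the table of DESeq2-normalized counts, and all 10 were found among its 20408 genes. Testing was limited to genes that reached 10 normalized counts in 4 or more mice, a level that 8 of the 10 met and Agtr2 and Rgs16 did not.

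The table holds bulk RNA-Seq of suprarenal aortas (SRAs) from 19 male mice, collected after 24 h of infusion. The labels give their age as 8 weeks. In the paper this is the age at which tamoxifen injections began, with infusion only after a period of rest. IKKβ-/- mice were SMA-CreERT2 Ikkb Flox/Flox ApoE-/-, and IKKβ+/+ mice were control littermates with SMA-CreERT2 and ApoE-/- but with intact Ikkb. All groups thus lacked ApoE, carried the tamoxifen-inducible Cre driven by the Acta2 promoter, and received tamoxifen on a C57BL6 background with regular chow, so that the deletion was directed at smooth muscle and Ikbkb could remain in the other cells of the wall. Groups of 5 IKKβ+/+ and 5 IKKβ-/- mice received angiotensin II (Ang II), for which the labels give a range of 500 to 1000 ng/min/kg and the methods text gives 1000 at 24 h, while 5 IKKβ+/+ and 4 IKKβ-/- mice received saline. The mouse numbers of each group form their own block, so that any difference in handling between the groups cannot be told apart from treatment and genotype.

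Ang II acts on vascular smooth muscle mainly through type 1 receptors, which mice carry as a pair of genes, Agtr1a and Agtr1b, and which couple to Gq, calcium release and contraction. The peptide is cut from angiotensinogen (Agt) by renin and then by angiotensin-converting enzyme (Ace), an ectoenzyme best known on endothelium. RGS proteins speed GTP hydrolysis by Gα subunits and so shorten the signal of such receptors, and Rcan1 binds and restrains calcineurin, the calcium-dependent phosphatase that activates NFAT factors.

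Totals recovered from the table ranged from 11382573 to 19906694 reads per mouse. Ikbkb, the deleted gene, had 515 ± 74.3 normalized counts (SD, n = 4) in saline-infused IKKβ-/- and 673 ± 78.6 (n = 5) in saline-infused IKKβ+/+ aortas, a log2 difference of -0.39 (SE 0.12, limma with Benjamini-Hochberg adjusted p = 0.0988). With Ang II the difference was -0.42 (SE 0.12, adjusted p = 0.173). The 6 smooth muscle markers summed to between 298216 and 623963 normalized counts in every mouse. In such bulk tissue, fewer cells of a type and less RNA per cell cannot be told apart.

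The 10 transcripts differed widely in level once counts were divided by exon length. Rgs5 was the highest, with a mean of 10639 normalized counts per kilobase of merged exons, followed by Ace at 1238, Rgs4 at 931, Rcan1 at 481 and Rgs2 at 129. The receptors were far lower, with Agtr1b at 26.8 and Agtr1a at 16.3 per kilobase, and Agt stood at 11.7. Rgs16 at 2.08 and Agtr2 at 0.374 per kilobase were close to the lower end of the table. Rgs5 lay above Ace in 19 of 19 mice and Rcan1 above Rgs2 in 19 of 19. Neighbours that changed places between mice were Ace and Rgs4 (Ace higher in 14 of 19), Rgs4 and Rcan1 (16 of 19), and Agtr1b and Agtr1a (15 of 19). The order also varied among the lowest transcripts, with some ties at 0. Agtr1a lay above Agt in 17 of 19 mice, Agt above Rgs16 in 15 of 19 and Rgs16 above Agtr2 in 14 of 19.

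**Figure D1:**
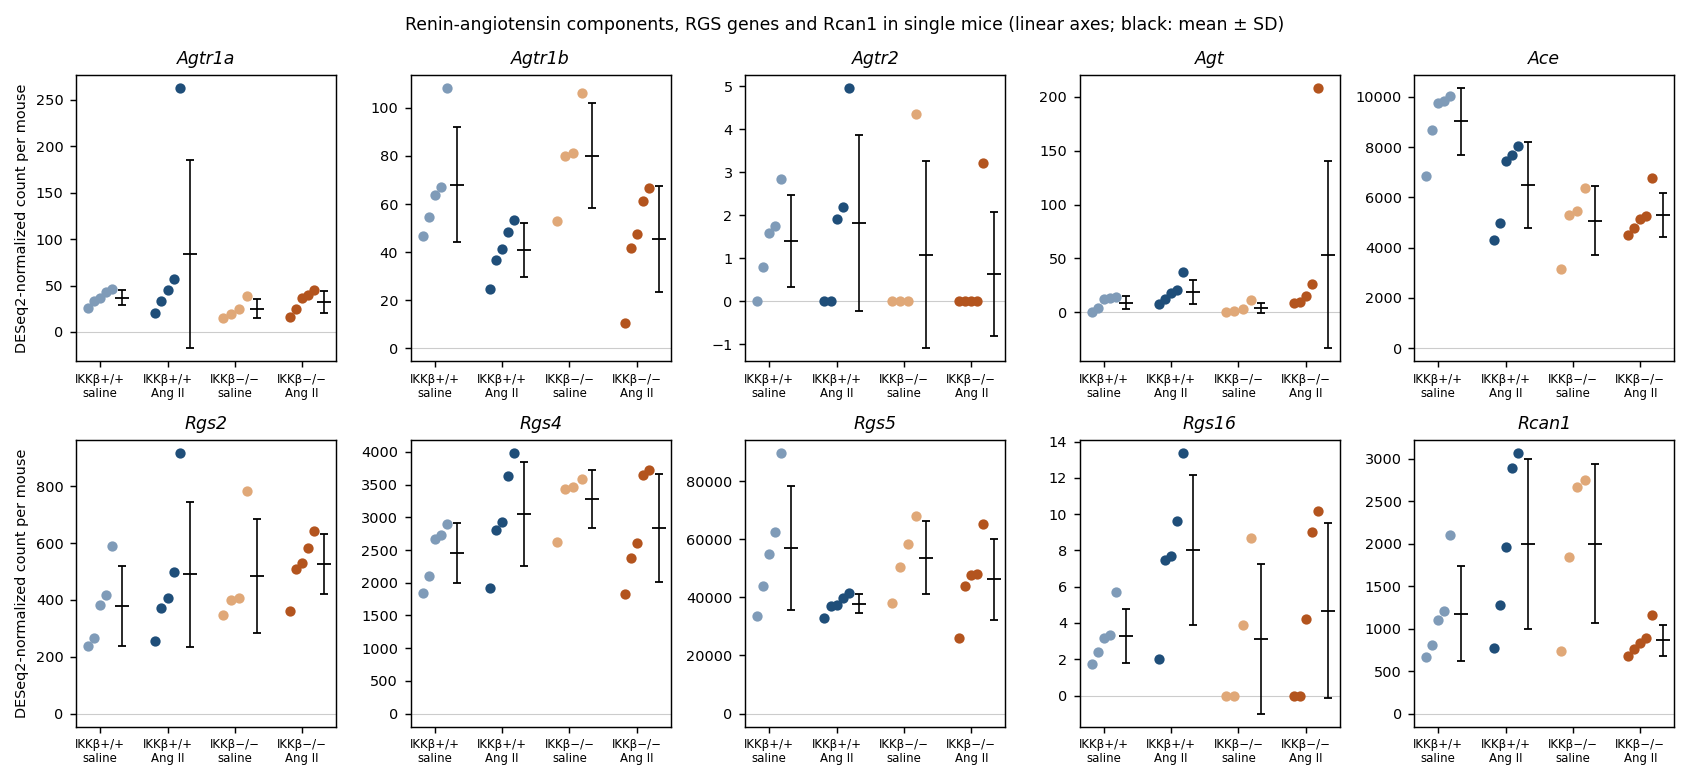
DESeq2-normalized counts (vertical linear axes) of the 10 transcripts in each mouse, by genotype and infusion. Points are single mice and the black mark beside each group is its mean ± SD. The 4 Ace values of saline-infused IKKβ-/- mice, 3165 to 6379, all lie below the 5 of saline-infused IKKβ+/+ mice, 6839 to 10050. Groups of every other transcript overlap in each comparison, and the share of all genes without overlap was not counted.

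A set of 5 comparisons was made with limma across 14845 genes: Ang II against saline within each genotype, the difference between those responses, and IKKβ-/- against IKKβ+/+ within each infusion. A gene was counted as changed at an adjusted p below 0.1 and a fold change above 1.2. In IKKβ+/+ mice 0 of the 8 tested transcripts changed with Ang II, against 8.66% of all genes tested. In IKKβ-/- mice 1 of 8 changed with Ang II (Agt), against 5.29% of all genes. The genotypes' responses differed for 0 of 8, and for 0% of all genes, by limma. DESeq2 on recovered reads called 279 genes for that difference, with 1 of the 8 among them (Rcan1), array weights gave 76 and edgeR 3, and 79 passed in limma without mouse X2356, with 0 of the 8 among the last 3 sets. With saline, 1 of 8 differed between genotypes (Ace), against 5.47% of all genes, and with Ang II 0 of 8 differed, against 0.128%. These comparisons share groups of mice and are not independent of each other.

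The fitted changes had no common direction. In IKKβ+/+ mice 5 of the 8 transcripts had a log2 fold change above 0 with Ang II, with a median of 0.30 against 0.01 over all genes, and in IKKβ-/- mice 4 of 8 were above 0, with a median of -0.08 against 0.00. Between genotypes 4 of 8 were above 0 with saline (median 0.11, all genes -0.02) and 3 of 8 with Ang II (median -0.07, all genes -0.01).

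**Figure D2:**
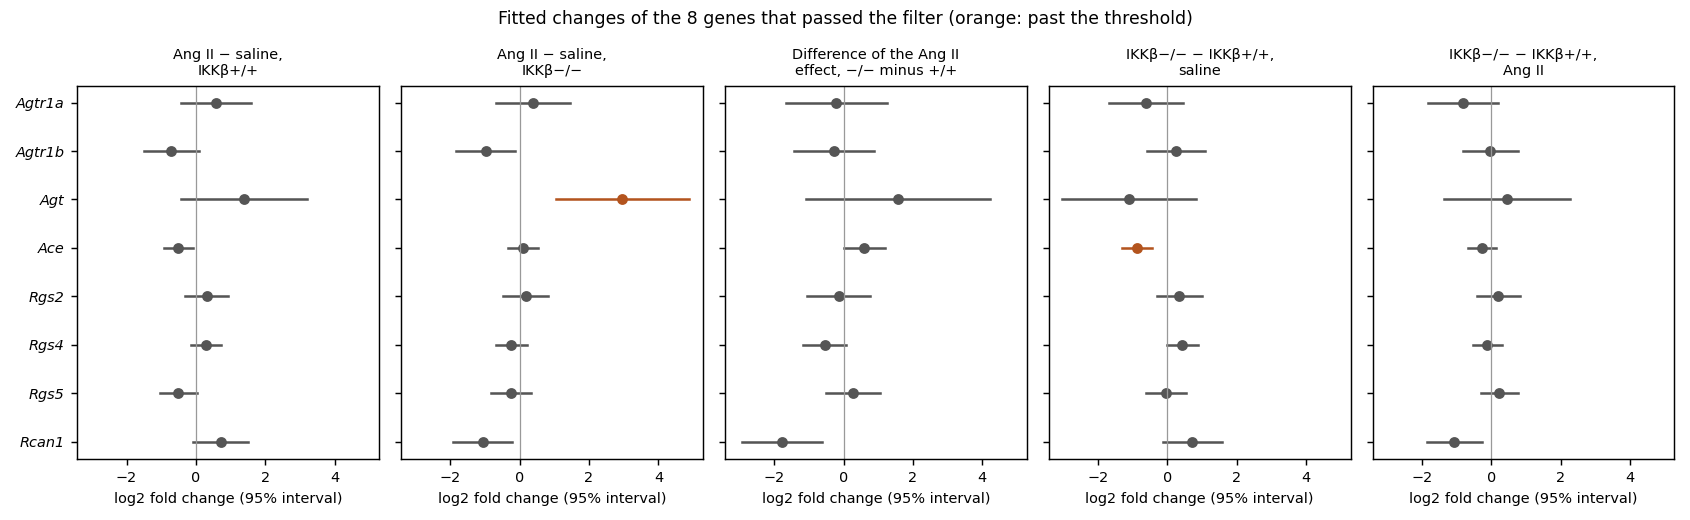
Log2 fold changes (horizontal axes; points) with 95% intervals (lines) from limma for the 8 transcripts that passed the filter, one panel per comparison. Orange marks the 2 that passed the threshold, Agt with Ang II in IKKβ-/- mice (2.96) and Ace between genotypes with saline (-0.86), and most other intervals include 0.

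The type 1 receptor genes were measured at low read numbers, 10 to 240 per mouse. Agtr1a (chr13:30336441-30382867, GRCm38, plus strand) had 36.6, 25.4, 45.8, 33.2 and 43.0 normalized counts in the saline-infused IKKβ+/+ mice and 45.0, 20.3, 263, 33.4 and 56.7 in those given Ang II. It had 15.4, 39.0, 19.8 and 24.7 in saline-infused IKKβ-/- mice and 15.7, 24.6, 40.1, 36.9 and 45.0 in IKKβ-/- mice given Ang II. The aorta of IKKβ+/+ mouse X2356 with Ang II, thus stood far above the other 18, whose values overlapped across groups. Snap25, a synaptic vesicle fusion protein of neurons, and Th, the rate-limiting enzyme of catecholamine synthesis, had 855 and 825 normalized counts in that mouse, 92.1 and 98.5 in mouse X2350 of the same group, and at most 15.4 and 7.99 in the other 17. Their part in the Agtr1a value was not tested. The fitted Agtr1a change with Ang II was 0.57 in IKKβ+/+ (SE 0.48, adjusted p = 0.538) and 0.37 in IKKβ-/- mice (SE 0.51, adjusted p = 0.767).

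Agtr1b (chr3:20314473-20367177, minus strand) was lower on average with Ang II in both genotypes, without passing the test. Saline-infused IKKβ+/+ mice had 108, 46.8, 54.6, 63.6 and 66.9 normalized counts, and those given Ang II had 24.6, 53.4, 48.3, 41.1 and 36.8. Saline-infused IKKβ-/- mice had 80.1, 106, 81.1 and 53.0, and those given Ang II had 66.5, 61.1, 10.6, 41.7 and 47.6. In each genotype 3 of the 5 values with Ang II were below all of those with saline. The log2 fold change was -0.71 in IKKβ+/+ (95% interval -1.50 to 0.08, adjusted p = 0.307) and -0.98 in IKKβ-/- mice (-1.83 to -0.14, adjusted p = 0.206), and the responses differed by -0.27 (-1.43 to 0.89, adjusted p = 0.869).

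The receptor pair is similar in sequence. Their longest GENCODE M21 transcripts aligned over 1141 bases with 90.1% identity, yet 0 of the 2120 windows of 80 bases in the Agtr1a transcript occurred unchanged in Agtr1b. Reads shorter than that, or reads with mismatches, could still have been shared between the pair, and this part of their counts remains uncertain. Agtr2 (chrX:21484544-21489164, plus strand), the receptor that opposes many type 1 actions, was listed at 0 in 10 of 19 mice and never exceeded 6 reads. Its normalized counts were 0, 0.794, 1.76, 2.85 and 1.59 in IKKβ+/+ mice with saline, 0, 0, 2.19, 1.91 and 4.97 in those given Ang II, 0, 0, 0 and 4.35 in IKKβ-/- mice with saline, and 0, 0, 0, 3.21 and 0 in IKKβ-/- mice given Ang II. At that level no change in Agtr2 was detectable.

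Agt (chr8:124556534-124569706, minus strand) was the member that passed the test with Ang II in IKKβ-/- mice. The 250 bases before its RefSeq start site (GRCm38.p6, chr8:124569707-124569956, minus strand) are shown because they hold a TATA box, the start-site element written TATAAA, 30 bases before the start, given in capitals.
Agt: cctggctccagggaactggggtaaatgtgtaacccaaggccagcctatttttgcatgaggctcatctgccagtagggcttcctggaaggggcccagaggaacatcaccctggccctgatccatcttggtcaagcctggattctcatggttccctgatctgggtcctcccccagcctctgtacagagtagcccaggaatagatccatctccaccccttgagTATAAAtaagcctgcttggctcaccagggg
The motif was searched on both strands and overlapped no other motif searched. It occurred in 12.4% of 32851 RefSeq windows of this length and in 4 of the 11 windows found for 9 of the 10 genes (Agtr1b, Agt, Ace and Rgs4), while Agtr1a had no entry.

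Saline-infused IKKβ-/- mice had 0.965, 3.16, 0 and 10.9 normalized counts of Agt, and IKKβ-/- mice given Ang II had 9.24, 15.1, 8.45, 209 and 25.7. The value of 209 came from mouse X2385, and 3 of the 5 values with Ang II were above all 4 with saline. In IKKβ+/+ mice the values were 12.6, 0, 14.1, 12.3 and 3.99 with saline and 20.4, 18.1, 12.1, 7.64 and 36.8 with Ang II. Agt rose in IKKβ-/- mice by a log2 fold change of 2.96 on the log2(count + 1) scale (SE 0.92, adjusted p = 0.0916), and had 1.398 in IKKβ+/+ mice (SE 0.87, adjusted p = 0.385). The responses were not shown to differ (difference 1.56, 95% interval -1.09 to 4.21, adjusted p = 0.643).

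The Agt result rested on few reads. Without mouse X2385 the log2 fold change was 2.19 (adjusted p = 0.199), with a pseudocount of 4 it was 2.09 (adjusted p = 0.107), and both lost the call. It was also lost without IKKβ-/- mice X2386, X2401, X2403 or X2406, with log2 fold changes of 2.41 to 3.10 and adjusted p of 0.133 to 0.253. Leaving out any of 6 IKKβ+/+ mice (X2352, X2359, X2370, X2373, X2376 or X2378), which are not in this comparison, kept the fold change at 2.96 and moved the adjusted p just past the threshold, at most to 0.112.

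Adipocyte markers, like Agt, were higher with Ang II in IKKβ-/- mice. The 5 markers summed to between 52.1 and 480 normalized counts in saline-infused IKKβ-/- mice and between 486 and 9569 with Ang II, and 3 of the 4 tested rose (Adipoq, Cidec and Plin1). Across the 19 mice the correlation of Agt with the summed markers was r = 0.73 on log2 values, and r = 0.54 within groups. Single mice did not all follow it. Mouse X2384 had the highest adipocyte sum and the lowest Agt of its group (8.45), and mouse X2385 was next in that sum. Mouse X2409 had the highest Agt of the saline-infused IKKβ-/- mice (10.9) at an adipocyte sum of 76.9. The part of fat in the Agt values was not tested.

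Ace (chr11:105967945-105989964, plus strand), the enzyme that forms Ang II and degrades bradykinin, was lower in IKKβ-/- than in IKKβ+/+ aortas with saline. Its first RefSeq start site is shown with the KLF and Sp element GGGCGG in capitals, found 4 times within 250 bases (GRCm38.p6, chr11:105967698-105967947, plus strand) at 140, 136, 75 and 18 bases before the start, the first 2 overlapping each other and none overlapping another motif.
Ace: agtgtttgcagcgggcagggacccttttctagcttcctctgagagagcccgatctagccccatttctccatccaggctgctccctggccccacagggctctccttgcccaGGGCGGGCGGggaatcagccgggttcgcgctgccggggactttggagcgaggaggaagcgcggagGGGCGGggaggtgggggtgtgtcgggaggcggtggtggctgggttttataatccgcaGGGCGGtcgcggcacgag
GGGCGG occurred on either strand in 32.7% of all windows of this length and in 5 of the 11 windows of these genes. The gene has a second RefSeq start site further along, and the gene-level counts do not separate the transcripts.

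Ace stood at 6839, 9833, 9766, 10050 and 8665 normalized counts in saline-infused IKKβ+/+ mice and at 5294, 5477, 3165 and 6379 in saline-infused IKKβ-/- mice. All 4 IKKβ-/- values lay below all 5 IKKβ+/+ values. How many of all genes separate in this way was not counted, and 5.47% of them were called in this comparison. The log2 difference was -0.86 (SE 0.21, adjusted p = 0.0501), a fold of 0.55. With Ang II the values were 4969, 8052, 7451, 4311 and 7693 in IKKβ+/+ and 6770, 4514, 5243, 4782 and 5130 in IKKβ-/- mice, which overlapped (log2 difference -0.27, SE 0.20, adjusted p = 0.545). Without IKKβ-/- mouse X2406, whose Ace was lowest, the saline difference was -0.65 (adjusted p = 0.178), and it also lost the call without IKKβ+/+ mouse X2373 (adjusted p = 0.119) or IKKβ-/- mouse X2403.

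The Ace response to Ang II was also compared between genotypes. In IKKβ+/+ mice the log2 fold change with Ang II was -0.51 (SE 0.20, adjusted p = 0.143) and 2 of the 5 values with Ang II were below all 5 with saline, whereas it was 0.09 (SE 0.21, adjusted p = 0.870) in IKKβ-/- mice. The difference between these responses, 0.60 (95% interval 0.00 to 1.19), had an unadjusted p of 0.0495 and an adjusted p of 0.448 by limma, so it was not past the threshold. Without mouse X2406 the IKKβ+/+ response of Ace, still -0.51, passed the test (adjusted p = 0.0917), although that mouse is in neither group compared and enters only the shared estimate of spread. That fit called 1361 of the 14845 genes, against 1286 with all mice.

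The summed endothelial markers moved with Ace. Pecam1, Cdh5, Vwf, Tek and Kdr, which encode junction proteins, von Willebrand factor and growth factor receptors of endothelium, summed to between 19563 and 34012 normalized counts in saline-infused IKKβ+/+ mice, between 10798 and 21748 in IKKβ+/+ mice given Ang II, between 11660 and 25766 in saline-infused IKKβ-/- mice and between 6858 and 23687 in IKKβ-/- mice given Ang II. All 5 markers had a log2 difference below 0 between genotypes with saline (median -0.80), although 0 of 5 passed the test. With Ang II the markers did not move alike, since Tek fell in IKKβ+/+ mice (-1.08, adjusted p = 0.0299) while Kdr rose in IKKβ-/- mice (1.79, adjusted p = 0.0990), from 52.1 ± 20.5 (SD, n = 4) to 238 ± 168 (n = 5) normalized counts. In IKKβ+/+ mice Kdr had 0.31 (adjusted p = 0.797). Across the 19 mice the correlation of log2 Ace with log2 summed markers was r = 0.83, and r = 0.78 after the group means were removed, as a description over mice that share library depth and dissection.

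Expressed per 100 normalized counts of these markers, Ace was 32.5 ± 2.47 (SD, n = 5) in saline-infused IKKβ+/+ mice and 29.2 ± 8.66 (n = 4) in saline-infused IKKβ-/- mice. The fold between genotypes was 0.873 on this scale, against 0.550 for Ace itself (two-sided exact permutation p = 0.333 for the ratio and 0.0159 for Ace). The same ratio was 38.1 ± 2.01 (n = 5) in IKKβ+/+ mice given Ang II, 1.17 times the saline level (two-sided exact permutation p = 0.00794). In IKKβ-/- mice given Ang II the ratio was 38.7 ± 15.3 (n = 5, 28.6 to 65.8). The ratio was chosen after the values of Ace and of the markers had been seen. Because the marker sum moved with Ace, the ratio and its p-values cannot tell cell content and Ace expression apart. The part of endothelial content in the Ace values was not tested.

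**Figure D3:**
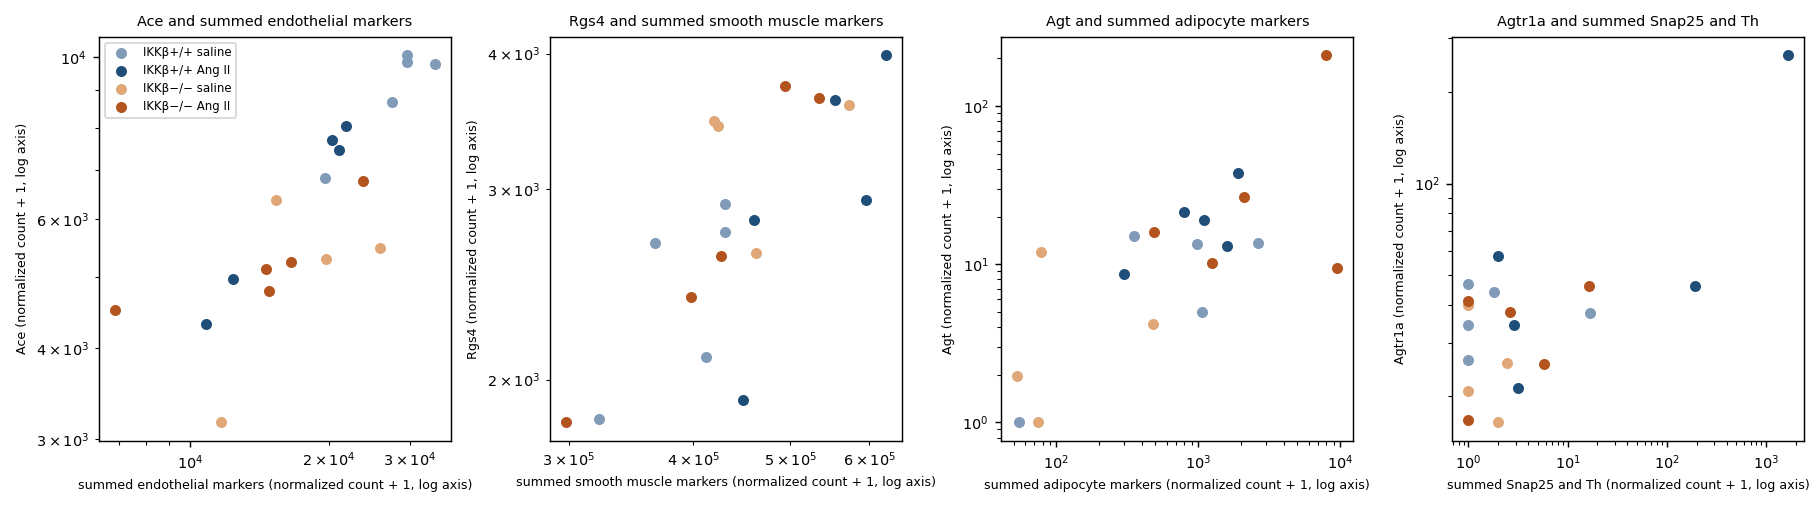
One point per mouse, coloured by group, with both axes logarithmic and in normalized counts plus 1. Panels set Ace against summed endothelial markers, Rgs4 against summed smooth muscle markers, Agt against summed adipocyte markers, and Agtr1a against Snap25 plus Th. Ace follows the endothelial sum (r = 0.83) and Rgs4 the smooth muscle sum (r = 0.75), while single mice stand apart for Agt (209) and Agtr1a (263).

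The RGS genes differed widely in abundance, and 0 of the 3 tested changed in any of the 5 comparisons by limma. Rgs5 (chr1:169655501-169695813, plus strand), an abundant product of arterial smooth muscle and pericytes, had 89741, 55035, 62403, 43869 and 33437 normalized counts in saline-infused IKKβ+/+ mice and 37511, 37152, 32896, 41595 and 39743 in those given Ang II. Saline-infused values thus spread widely, and the treated ones lay within a narrow range at the lower end of that spread. The IKKβ-/- values of Rgs5 were 50376, 38077, 67860 and 58483 with saline and 44018, 47591, 25844, 47896 and 65399 with Ang II. The log2 fold change was -0.52 in IKKβ+/+ (SE 0.26, adjusted p = 0.267) and -0.25 in IKKβ-/- mice (SE 0.27, adjusted p = 0.695). DESeq2, run on recovered reads, called Rgs5 lower in IKKβ+/+ mice (-0.59, adjusted p = 0.0924), as 1 of 1887 genes called among 14845.

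Rgs4 (chr1:169741477-169747642, minus strand), which acts on Gi and Gq, lies close to Rgs5 on the same chromosome. It had 2904, 2738, 2096, 2673 and 1838 normalized counts in saline-infused IKKβ+/+ mice and 2928, 3625, 1914, 3986 and 2805 with Ang II. Its IKKβ-/- values were 2616, 3468, 3427 and 3588 with saline and 3642, 3731, 1826, 2381 and 2602 with Ang II. In both genotypes the groups overlapped, with log2 fold changes of 0.29 in IKKβ+/+ (SE 0.20, adjusted p = 0.438) and -0.25 in IKKβ-/- mice (SE 0.22, adjusted p = 0.602). Saline-infused IKKβ-/- mice lay above saline-infused IKKβ+/+ mice by 0.43 (SE 0.22, adjusted p = 0.283). Rgs4 moved with smooth muscle markers, with r = 0.75 over 19 mice and r = 0.78 within groups, and for Rgs5 these were 0.16 and 0.59.

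The summed smooth muscle markers differed between the IKKβ+/+ groups. They lay between 321310 and 430182 normalized counts with saline and between 448503 and 623963 with Ang II, and did not overlap. Of the 6 markers (Myh11, Acta2, Tagln, Cnn1, Smtn and Myocd), 5 had a log2 fold change above 0, Myocd not among them. Only Cnn1 and Tagln passed the test. Per 100 normalized counts of these markers, Rgs5 was 14.2 ± 4.08 (SD, n = 5, 10.4 to 20.9) with saline and 7.13 ± 0.928 (n = 5, 6.30 to 8.65) with Ang II, again without overlap, and 11.6 ± 3.08 (n = 4) and 10.8 ± 2.94 (n = 5) in IKKβ-/- mice. The same ratio for Rgs4 overlapped between saline and Ang II, lying between 0.509 and 0.731 with saline and between 0.427 and 0.653 with Ang II in IKKβ+/+ mice, and between 0.566 and 0.827 and between 0.598 and 0.756 in IKKβ-/- mice. These ratios are descriptions chosen after the values had been seen. The Rgs5 counts themselves overlapped between the IKKβ+/+ groups and were not called by limma. The share of all genes without overlap was not counted.

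Rgs2 (chr1:143999338-144004161, minus strand), a selective brake on Gq, had 590, 268, 238, 382 and 418 normalized counts in saline-infused IKKβ+/+ mice and 918, 254, 498, 373 and 406 with Ang II. The IKKβ-/- mice had 408, 346, 784 and 398 with saline and 641, 360, 510, 584 and 530 with Ang II. A single mouse led each of 2 groups, mouse X2350 with 918 and mouse X2406 with 784, and all groups overlapped. The log2 fold change with Ang II was 0.31 in IKKβ+/+ (SE 0.30, adjusted p = 0.602) and 0.17 in IKKβ-/- mice (SE 0.32, adjusted p = 0.835).

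Rgs16 (chr1:153740349-153745468, plus strand) was at the edge of detection, with at most 14 reads in a mouse and 0 in 4 mice. Saline-infused IKKβ+/+ mice had 3.33, 2.38, 1.76, 5.70 and 3.19 normalized counts and those given Ang II had 9.64, 7.47, 7.68, 13.4 and 1.99, so that 4 of 5 values with Ang II were above all 5 with saline. For IKKβ-/- mice the values were 3.86, 0, 0 and 8.71 with saline and 10.2, 0, 4.23, 0 and 8.997 with Ang II. In a limma fit without the filter on low values its change in IKKβ+/+ mice was 0.98 (SE 0.75, adjusted p = 0.562).

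Rcan1 (chr16:92391953-92470867, minus strand) had fitted responses of opposite sign in the 2 genotypes, neither of them past the threshold by limma. RefSeq gives it 2 start sites, and their upstream windows are shown together because only one holds the NFAT core GGAAA, in capitals where it reads on the gene strand and as TTTCC where it reads on the other. The downstream start (GRCm38.p6, chr16:92400079-92400328, minus strand) has 3 matches, at 227, 193 and 163 bases before the start, and the upstream start (chr16:92466170-92466419, minus strand) has 0.
Rcan1 downstream start: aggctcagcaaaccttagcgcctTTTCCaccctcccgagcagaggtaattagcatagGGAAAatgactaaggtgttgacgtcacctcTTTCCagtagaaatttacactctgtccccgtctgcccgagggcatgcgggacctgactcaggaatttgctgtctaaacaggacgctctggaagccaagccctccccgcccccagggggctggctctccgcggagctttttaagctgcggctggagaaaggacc
Rcan1 upstream start: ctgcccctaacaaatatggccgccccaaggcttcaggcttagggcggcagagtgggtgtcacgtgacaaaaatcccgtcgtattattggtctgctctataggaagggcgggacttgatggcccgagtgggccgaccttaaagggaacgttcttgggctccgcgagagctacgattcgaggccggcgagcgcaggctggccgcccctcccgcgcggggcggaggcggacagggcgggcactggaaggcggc
GGAAA occurred in 55.6% of all windows of this length and in 3 of the 11 windows of these genes (Agtr2, Rgs5 and the downstream Rcan1 window), and overlapped no other motif searched. The cAMP response element core TGACG, found in 17.8% of all windows, occurred in the downstream Rcan1 window and before Rgs2 and Rgs4. CATTCC (the TEAD site, 12.6% of all windows), the CArG box (1.47%) and the NF-kB site (7.25%) had 0 matches in the 11 windows. The counts are per gene and do not separate transcripts from the 2 Rcan1 starts.

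Rcan1 had 807, 1204, 2098, 1100 and 660 normalized counts in saline-infused IKKβ+/+ mice and 3070, 1279, 772, 2896 and 1966 in those given Ang II. Among IKKβ-/- mice it had 2755, 2671, 739 and 1842 with saline and 1155, 682, 894, 825 and 757 with Ang II. With Ang II, 2 of 5 IKKβ+/+ mice exceeded every saline-infused mouse of that genotype. Among IKKβ-/- mice 3 of the 4 saline values lay above all 5 Ang II values, and mouse X2406 at 739 did not.

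The log2 fold change of Rcan1 with Ang II was 0.71 in IKKβ+/+ (SE 0.38, adjusted p = 0.310) and -1.07 in IKKβ-/- mice (SE 0.41, adjusted p = 0.170). The difference between the responses was -1.78 (95% interval -2.94 to -0.61), with an unadjusted p of 0.00468 that ranked 239 among 14845 genes and an adjusted p of 0.288. Between genotypes Rcan1 had a log2 difference of 0.72 with saline (SE 0.41, adjusted p = 0.344) and of -1.06 with Ang II (SE 0.38, adjusted p = 0.231). None of these passed the threshold by limma, and 1654 genes had an unadjusted p below 0.05 for the difference of responses while 0 passed. DESeq2 on recovered reads called Rcan1 for the difference (-1.98, adjusted p = 0.0661), for Ang II in IKKβ-/- mice (-1.22, adjusted p = 0.0759) and between genotypes with Ang II (-1.21, adjusted p = 0.0946). In these comparisons DESeq2 called 279, 1164 and 521 of the 14845 genes.

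With array weights, limma called Rcan1 lower with Ang II in IKKβ-/- mice (-1.38, adjusted p = 0.0663). It also called Rcan1 higher in IKKβ-/- than in IKKβ+/+ mice with saline (1.03, adjusted p = 0.0635). Calls over all 14845 genes rose too with array weights. Between genotypes with saline 1902 genes were called, against 812 in the main fit. With Ang II in IKKβ-/- mice more genes were called than the 785 of the main fit.

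Leaving out single mice also changed the limma calls. Without mouse X2356, the IKKβ+/+ mouse with the highest Snap25 and Th, Rcan1 rose with Ang II in IKKβ+/+ mice (1.01, adjusted p = 0.0930) and was lower in IKKβ-/- than in IKKβ+/+ mice with Ang II (-1.36, adjusted p = 0.0756). In these comparisons 1915 and 553 of the 14845 genes were called without mouse X2356, against 1286 and 19 with all mice. Without mouse X2406 Rcan1 fell with Ang II in IKKβ-/- mice (-1.49, adjusted p = 0.0581), where 435 genes were called, against 785 with all mice. Leaving out any 1 of the 19 mice kept the difference of responses below 0, between -2.20 and -1.57, with adjusted p between 0.104 and 0.519.

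The transcripts that varied most like Rcan1 across the 19 mice, among genes with a mean of at least 50 normalized counts, were Ifrd1 (r = 0.956), Ankrd1 (r = 0.933) and Ccn2 (r = 0.930), on log2 values. After the group means were removed the correlations were 0.943, 0.900 and 0.902. IKKβ-/- mice given Ang II had the lowest group mean of each, as with Ccn2, the connective tissue growth factor, at 40538 and 94606 normalized counts in IKKβ+/+ mice with saline and Ang II, and at 80158 and 35823 in IKKβ-/- mice.

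**Figure D4:**
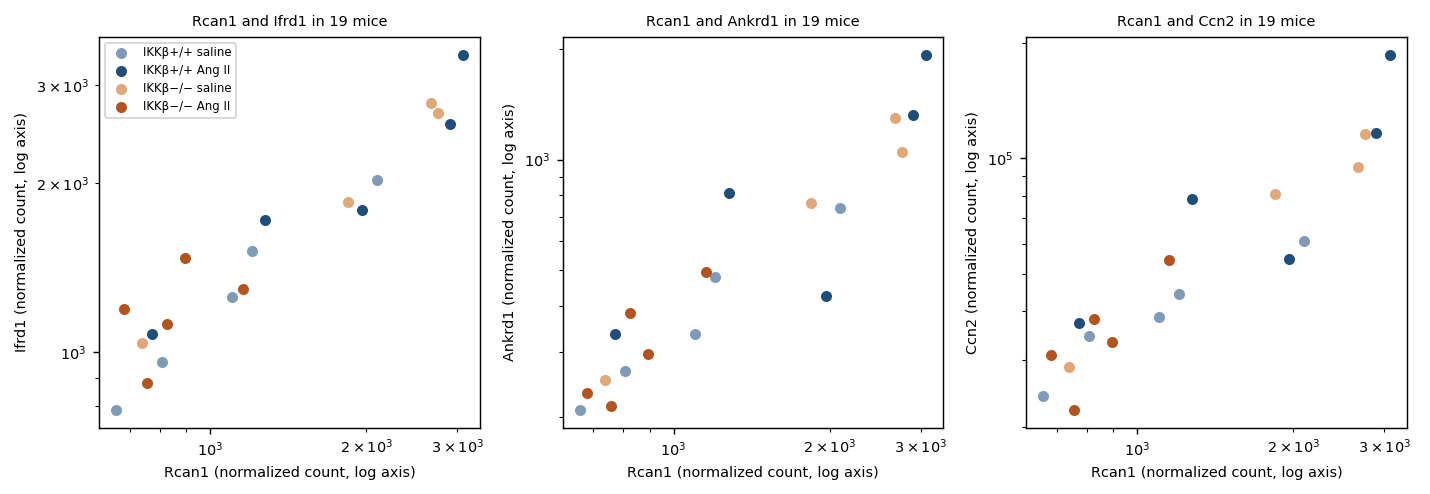
Rcan1 (horizontal) against Ifrd1, Ankrd1 and Ccn2 (vertical), in normalized counts on logarithmic axes, one point per mouse and coloured by group. The points follow one line in each panel (r = 0.956, 0.933 and 0.930 on log2 values over 19 mice). IKKβ-/- mice given Ang II lie in the lower part, together with mice of every other group. Saline-infused IKKβ+/+ mouse X2378 has the lowest Rcan1 (660), and IKKβ+/+ mouse X2356 with Ang II (772) and saline-infused IKKβ-/- mouse X2406 (739) are also low.

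The other members had different neighbours by the same measure. Ace varied most like Celsr1 (r = 0.897), Vwf (0.893) and Stab1 (0.892), and Rgs4 most like Tpm1 (0.806), Myl9 (0.792) and Snrpd3 (0.789). Rgs5 came with Prkg1 (0.856), Parm1 (0.853) and BC106179 (0.815), Agtr1b with Med16 (0.821), Gjc1 (0.809) and Slc20a2 (0.806), and Rgs2 with Rpl12 (0.766), Ppfibp2 (0.749) and Insig1 (0.714). These are the highest of many correlations and are given as descriptions. Among the members themselves the correlations over 19 mice lay between -0.57 (Ace and Rgs2) and 0.56 (Agtr1b and Rgs5). After the group means were removed they lay between -0.68 (Agtr1a and Rgs4) and 0.49 (Agtr1b and Rgs4).

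Other genes of the pathway were read from lists, whose counts stand beside the shares of all genes called. Those shares were 8.66% with Ang II in IKKβ+/+ and 5.29% in IKKβ-/- mice. Between genotypes they were 5.47% with saline and 0.128% with Ang II. Of 16 tested genes for further peptidases, receptors and mediators of the system, 3 changed with Ang II in IKKβ+/+ mice: Nr3c2, the mineralocorticoid receptor, fell from 392 ± 71.0 to 166 ± 69.8 normalized counts (log2 fold change -1.32, adjusted p = 0.00835), Mme, the peptidase neprilysin, fell (-1.81, adjusted p = 0.0299), and Rnpep, aminopeptidase B, rose (0.38, adjusted p = 0.0847). In IKKβ-/- mice 2 of 16 changed, with Nr3c2 lower (-0.86, adjusted p = 0.0960) and Enpep, the aminopeptidase that trims Ang II, higher (0.57, adjusted p = 0.0750). The difference of the Mme responses, 1.85, had an adjusted p of 0.329. In the other comparisons 0 of 16 passed.

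Among 28 tested genes of G protein signalling, Grk5, a kinase that desensitizes receptors, rose with Ang II in both genotypes. It went from 1275 ± 337 to 2190 ± 346 normalized counts in IKKβ+/+ mice (log2 fold change 0.80, adjusted p = 0.00721) and from 834 ± 77.7 to 1525 ± 206 in IKKβ-/- mice (0.86, adjusted p = 0.00800), and the responses differed by 0.06 (adjusted p = 0.929). Of the 28, 2 rose and 2 fell in IKKβ+/+ mice, against 8.66% of all genes called. These included Prkca, protein kinase C alpha, at 0.42, Arrb1, a β-arrestin, at -0.44 and Itpr2, a calcium release channel, at -0.65. In IKKβ-/- mice Gnai2 fell (-0.29, adjusted p = 0.0750). Between genotypes with saline 1 was higher and 3 were lower in IKKβ-/- mice, the lower ones being Arrb1 at -0.59, Grk5 at -0.58 and Prkca at -0.45. With Ang II only Prkca passed (-0.64, adjusted p = 0.0803).

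Calcineurin and NFAT genes gave 2 calls among 11 tested, both in IKKβ+/+ mice with Ang II, where 8.66% of all genes were called. Ppp3cc, a catalytic subunit of calcineurin, rose (0.62, adjusted p = 0.0357), and Rcan2, the paralog of Rcan1, fell from 6513 ± 1274 to 3434 ± 915 normalized counts (-0.94, adjusted p = 0.0357). Rcan2 in IKKβ-/- mice had -0.74 (adjusted p = 0.133), and its responses differed by 0.20 (adjusted p = 0.849). None of the 12 further RGS genes tested passed in any comparison by limma, with medians of -0.32 in IKKβ+/+ and -0.14 in IKKβ-/- mice with Ang II, and none of the 13 tested receptors for other vasoconstrictors passed (medians -0.12 and -0.16).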

How the data were processed

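The authors sequenced poly(A) RNA of suprarenal aortas, and per the labels reads were handled with Trimmomatic 0.35, STAR 2.7.1a, RSEM and DESeq2 1.30.1 on GRCm38. The deposited values are counts per gene divided by DESeq2 size factors, a normalized signal. In the table every gene is above 0 in at least 4 mice. Whole reads were recovered from the steps of these values: 100% came out whole within 0.001 reads. The main test was limma 3.58.1 (trended prior, 1 mean per group, all 19 mice) on log2(normalized count + 1), two-sided, with Benjamini-Hochberg adjustment over 14845 genes reaching 10 normalized counts in 4 or more mice. Fold changes on this scale understate the change of low genes. A call needed an adjusted p below 0.1 and a fold change above 1.2, the thresholds of the study.

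Alternatives were a pseudocount of 4, no filter, only the groups compared, array weights, TMM scaling, edgeR 4.0.16 and DESeq2 1.42.0 on recovered reads, stricter thresholds, and each mouse left out. The scripts were tested on simulated data. Every mouse value of each member is given, with pathway genes that passed the test (at most 6 per list by size of change, 1 exception below) and the 3 genes most like a member among those with a mean of at least 50 normalized counts. Members and lists were chosen with earlier results of these data known. Groups come from the labels, which give 1 mouse per sample. Exon lengths and transcripts are GENCODE M21, and promoter windows are RefSeq (GRCm38.p6). The values of 1 called gene of the G protein signalling list are not reported here.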

Additional observations from a re-analysis of the deposited data

Results flagged for a closer look

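A gap between the highest or lowest mouse and its nearest neighbour that was large for the group's range (Dixon's criterion) was found in 6 of the 40 combinations of transcript and group examined, where chance flags about 1 in 20 groups of normally distributed values. These counts are skewed, and in the 2 Agtr2 groups 1 mouse alone is above 0, so that any read there meets the criterion. Agtr1a was 263 normalized counts in IKKβ+/+ mouse X2356 with Ang II, against 56.7 in the next mouse of its group. Agt was 209 in IKKβ-/- mouse X2385 with Ang II, against 25.7 in the next. Agtr2 was 3.21 in the same mouse X2385 and 4.35 in saline-infused IKKβ-/- mouse X2409, with 0 in the other mice of both groups, which is at most 6 reads. Rgs2 was 784 in saline-infused IKKβ-/- mouse X2406, against 408 in the next, and Rgs4 was 2616 in saline-infused IKKβ-/- mouse X2401, the lowest of its group, against 3427 in the next.

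Mouse X2406 had the lowest total (11382573 reads) and mouse X2385 had 11824041 reads. Mouse X2406 was also the lowest of its group for Ace (3165) and Rcan1 (739) and the highest for Rgs5 (67860). The part of depth in these values was not tested.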

How the results depend on the processing

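Across 40 fitted changes (8 transcripts, 5 comparisons), 1060 of the alternative fits kept direction and side of the threshold, 20 lost a call, 10 gained one and 22 changed sign, none of the last being called. Many of the 1060 could not change direction. Stricter thresholds reuse the main fit, and leaving out a mouse outside a comparison keeps its log2 value. The Agt call in IKKβ-/- mice was lost in 11 of 19 fits with 1 mouse left out. In IKKβ+/+ mice the count of members that changed with Ang II was 0, became 1 with DESeq2 (Rgs5), and ranged from 0 to 1 when a mouse was left out (Rcan1 without mouse X2356, Ace without mouse X2406). In IKKβ-/- mice it was 1, became 0 with a pseudocount of 4, without the filter, with only the groups compared and at an adjusted p below 0.05, and 2 with DESeq2 (Agt and Rcan1), with array weights it was 1 but Rcan1 in place of Agt, and it ranged from 0 to 1 over mice left out. For the difference of responses it was 0 in each fit run but DESeq2, which gave 1 (Rcan1). Between genotypes with saline it was 1, became 2 with array weights (Ace and Rcan1) and 0 at an adjusted p below 0.05, and ranged from 0 to 1, lost without mice X2373, X2403 or X2406. With Ang II it was 0, became 1 with DESeq2 (Rcan1), and ranged from 0 to 1 (Rcan1 without mouse X2356). The cause of these changes was not tested.

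Small fitted changes changed sign. With array weights the log2 values were -0.026 for Ace with Ang II in IKKβ-/- mice, and 0.33 for Agtr1a and 0.27 for Rgs2 in the difference of responses. Agtr1b between genotypes with Ang II was 0.17 by edgeR and 0.16 by DESeq2. Over mice left out, Ace with Ang II in IKKβ-/- mice ranged from -0.12 to 0.21, the differences of responses from -0.55 to 0.36 for Agtr1a, from -0.46 to 0.17 for Agtr1b and from -0.34 to 0.12 for Rgs2, Rgs5 between genotypes with saline from -0.21 to 0.15, and with Ang II Agtr1b from -0.21 to 0.42, Agt from -0.31 to 0.81 and Rgs4 from -0.27 to 0.033.

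Counts over all genes moved too. The 1286 calls in IKKβ+/+ mice became 2074 with array weights, 1887 with DESeq2, 638 at an adjusted p below 0.05 and 752 at a fold change above 1.5. They ranged from 428 (without mouse X2350) to 1915 (without mouse X2356). The 785 in IKKβ-/- mice became 295 with only the groups compared, 1164 with DESeq2 and 412 at an adjusted p below 0.05. They ranged from 435 (without mouse X2406) to 1082 (without mouse X2383). The 0 for the difference became 76 with array weights, 3 with edgeR and 279 with DESeq2, and ranged from 0 to 79 (without mouse X2356), with 19 without mouse X2406. The 812 between genotypes with saline became 1420 with only the groups compared, 1902 with array weights, 1437 with DESeq2, 136 at an adjusted p below 0.05 and 504 at a fold change above 1.5, and ranged from 24 (without mouse X2406) to 1726 (without mouse X2409). The 19 with Ang II became 1 with only the groups compared, 521 with DESeq2 and 0 at an adjusted p below 0.05. They ranged from 0 to 553 (without mouse X2356). No paired analysis was possible because the groups compared share no mouse numbers. Depth limits Agtr2 and Rgs16, at most 14 reads per mouse, and Agt.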
